A study of Mus musculus with 27 samples.

Results

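Livers of mice that ate the same fat diet at the end of life, with or without an earlier life on restricted food, were compared. The comparison takes the 7 arrays of the CR-MF group against the 7 arrays of the MF group, 14 of the 27 arrays of the series, and the members were chosen by their diet labels. All mice were male C57BL/6J mice of 28 months, and each gave 1 array of whole liver RNA. The diets started at 9 weeks of age. MF mice ate a medium-fat diet (25% of its energy as fat) from then on. CR-MF mice were restricted in calories by 30% until 24 months and were then moved in gradual steps to free access to the medium-fat diet, 4 months before sampling. The groups C (AIN-93W control diet, 8 mice) and CR (30% restriction throughout, 5 mice) are used here only as reference levels and for the estimate of the spread. Before death the mice fasted for 4 hours, received a gavage of carboxymethyl cellulose, and fasted for another 6 hours. The CR-MF group is defined by a restricted past together with a shorter time on the fat diet, and these features cannot be told apart in this comparison.

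The liver of the mouse is one of the tissues in which the sexes differ most in gene expression. The pituitary releases growth hormone in pulses in males and more steadily in females, and through STAT5 the pattern sets the levels of male-biased and female-biased enzymes, transporters and secreted proteins of hepatocytes. The liver also takes up, stores, burns and exports fat, and its resident macrophages, endothelial cells and stellate cells add their own transcripts to a whole-tissue sample.

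The promoters of 3 genes on which the results turn are shown because the genes stand for the male-biased rise and the female-biased fall described next. They come from RefSeq (GRCm38.p6) and run from 250 bases before to 50 bases after a start, 5′ to 3′ on the strand of the gene. Hsd3b5 lies on the minus strand at chr3:98645485-98645784, Cyp2b9 on the plus strand at chr7:26173159-26173458, and 1 of the listed Fmo2 starts on the minus strand at chr1:162898444-162898743. Capitals mark a match to TTCNNNGAA, the palindrome that STAT5 binds, which reads the same on both strands.
Hsd3b5: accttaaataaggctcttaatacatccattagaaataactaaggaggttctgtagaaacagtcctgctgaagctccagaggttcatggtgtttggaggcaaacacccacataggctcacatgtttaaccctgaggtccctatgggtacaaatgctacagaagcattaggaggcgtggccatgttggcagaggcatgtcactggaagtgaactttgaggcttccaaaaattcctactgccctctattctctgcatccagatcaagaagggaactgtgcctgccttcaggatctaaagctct
Cyp2b9: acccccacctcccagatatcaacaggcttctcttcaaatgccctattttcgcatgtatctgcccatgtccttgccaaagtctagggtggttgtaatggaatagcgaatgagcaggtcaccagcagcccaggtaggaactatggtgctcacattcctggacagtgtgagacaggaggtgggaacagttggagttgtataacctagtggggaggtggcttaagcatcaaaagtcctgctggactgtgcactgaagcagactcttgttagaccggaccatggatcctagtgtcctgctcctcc
Fmo2: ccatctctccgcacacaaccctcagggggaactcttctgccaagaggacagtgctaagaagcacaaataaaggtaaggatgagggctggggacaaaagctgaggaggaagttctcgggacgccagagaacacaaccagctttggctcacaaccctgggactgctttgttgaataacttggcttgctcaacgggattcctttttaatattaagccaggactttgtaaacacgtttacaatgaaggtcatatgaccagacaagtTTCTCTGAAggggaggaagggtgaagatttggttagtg
Among these, only the Fmo2 window held the motif. It was chosen for that, and the window of the other listed Fmo2 start has no match. It was found in 8.3% of all 32851 promoters and in 8.42% of the 11053 tested genes that had a promoter in the table. Of the tested genes with a promoter, 2 of 18 on the male-biased list (11.1%) and 4 of 17 on the female-biased list (23.5%) held it. None of the 8 male-biased genes that passed the test and had a promoter held it, and 1 of 6 such female-biased genes did. A match describes the letters of this window and no binding.

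Of 13993 genes tested, 77 (0.55%) were higher and 125 (0.893%) were lower in CR-MF than in MF at an adjusted p under 0.05 (limma, Benjamini-Hochberg over all genes tested). The called genes were led by Hsd3b5 and other male-biased liver genes on the higher side and by the female-biased cytochrome P450 Cyp2b9 on the lower side. The median absolute log2 difference of the 202 called genes was 0.58, and 11 rose and 31 fell by more than 1 on the log2 scale. At an unadjusted p under 0.01, 340 genes (2.43%) were higher and 467 (3.34%) were lower. The 7 values of the groups did not overlap for 54 genes above (0.386%) and 37 below (0.264%), and 33 of the higher and 30 of the lower called genes were among them. The balance of the calls depended on the scaling: 38.1% of the called genes were higher as deposited, 48.3% of 209 after quantile normalization, and 69.1% of 259 (179 higher and 80 lower) after centring each array on its median, which moved the median of all genes by 0.08. The CR-MF arrays all carry well row H in their names and the MF arrays row G, so that diet history and well row cannot be told apart.

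**Figure D1:**
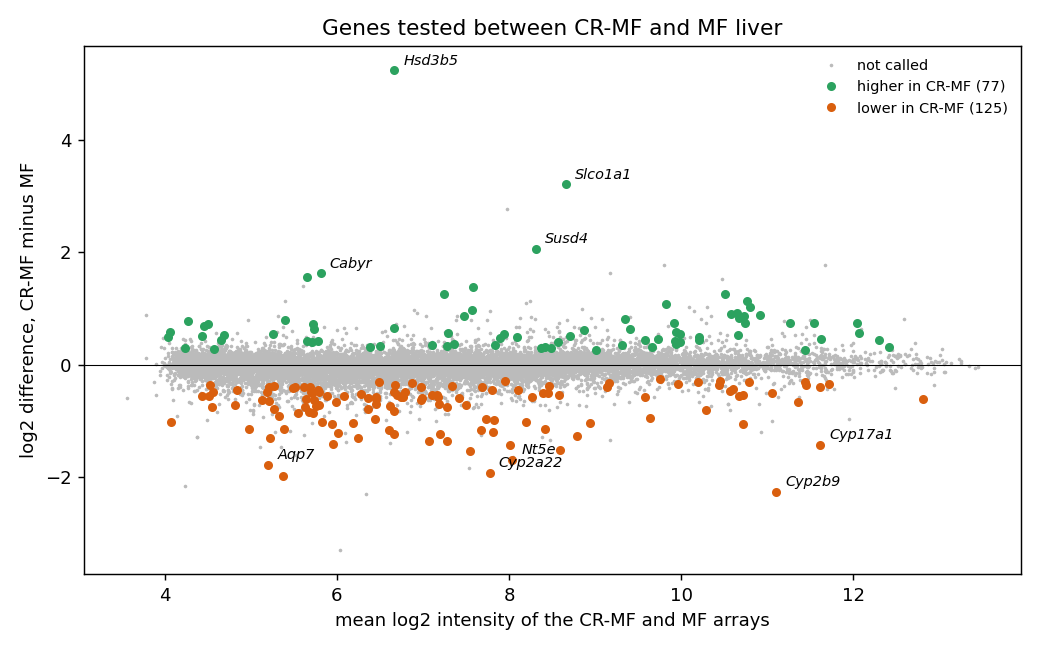
Log2 difference, CR-MF minus MF, against the mean log2 intensity over the 14 arrays, with 1 point per gene tested. Green points (77) were higher and orange points (125) were lower at an adjusted p under 0.05, and Hsd3b5 stands highest at 5.25.

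The arrays carried the labelled tissue. Albumin (Alb) lay between 13.55 and 13.73 in CR-MF and between 13.55 and 13.69 in MF on the log2 intensity scale, near the top of the range. Of 11 measured hepatocyte markers, 4 passed the filter, since the others varied too little over the arrays, and none of the 4 was called (median log2 difference 0.02). Array medians ran from 5.38 to 5.48 and pairs of the 14 arrays correlated between 0.977 and 0.991. Each group had 5 arrays on plate G150 and 1 each on G151 and G152.

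Many genes that male livers normally express more strongly were higher in CR-MF. Of 27 listed, 24 were tested, 10 were called higher and none lower, against 0.55% of all genes, and 23 of 24 differences were positive with a median of 0.84, where the median over all genes tested was 0.00. The list was written with earlier results of these arrays known, so that its direction is a description. The mean level of the list relative to all arrays ran from 0.38 to 0.99 in the CR-MF mice and from -0.91 to -0.21 in the MF mice. Leaving out each mouse in turn gave 7 to 11 called members, and within plate G150 there were 8.

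Hsd3b5, a male-specific steroid dehydrogenase of mouse liver, changed most. Its log2 intensity ran from 7.33 to 10.51 in CR-MF (median 9.83) and from 3.21 to 5.23 in MF (median 4.05). The groups were apart, with even the lowest CR-MF mice still above every MF mouse. The difference was 5.25 (standard error 0.82, adjusted p = 0.00156), a fold of 38. Only 2 of the MF arrays lay above the intensity of 20 taken as background, and with lower values raised to it the fold was 28.3. Slco1a1, a male-biased organic anion transporter, ran from 9.24 to 10.74 in CR-MF (median 10.42) and from 5.16 to 10.02 in MF (median 6.55). The CR-MF mice were close together, while the MF mice spread widely and 1 of them reached into the CR-MF range. Its difference was 3.22 (standard error 0.84, adjusted p = 0.0472), and the call ended under 16 of 29 alternatives, with an adjusted p between 0.0192 and 0.111.

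Susd4, a complement-regulating membrane protein, ran from 8.64 to 10.03 in CR-MF (median 9.23) and from 6.27 to 8.19 in MF (median 7.24), and no value of one group reached the other. Its difference was 2.07 (standard error 0.33, adjusted p = 0.00162). Ttc39c, a tetratricopeptide protein, rose by 1.14 (standard error 0.16, adjusted p = 0.000676) with a gap between the groups. Nudt7, a peroxisomal coenzyme A hydrolase, differed by 0.92 (standard error 0.15, adjusted p = 0.00291) and likewise did not overlap. Cyp2u1, a fatty acid hydroxylase, was higher by 1.39 (standard error 0.26, adjusted p = 0.00745). The remaining called members differed by less than 1 on the log2 scale. They were Cyp2d9 (0.87, adjusted p = 0.0271), Gstp1 (0.75, adjusted p = 0.00874), C8b (0.75, adjusted p = 0.0427) and Ugt2b1 (0.74, adjusted p = 0.0174), which are a cytochrome P450, a glutathione transferase, a complement component and a glucuronosyltransferase. Well-known male-biased genes with wide spread were not called, among them Cyp4a12a (1.53, adjusted p = 0.376), Elovl3 (1.64, adjusted p = 0.205), Cyp7b1 (1.02, adjusted p = 0.0613) and Egfr (0.80, adjusted p = 0.155). Cytochrome P450 genes with close copies, such as Cyp2d9 and Cyp4a12a, may share probes, so that their values are uncertain. The call of C8b ended under 16 of the alternatives and that of Cyp2d9 under 8.

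**Figure D2:**
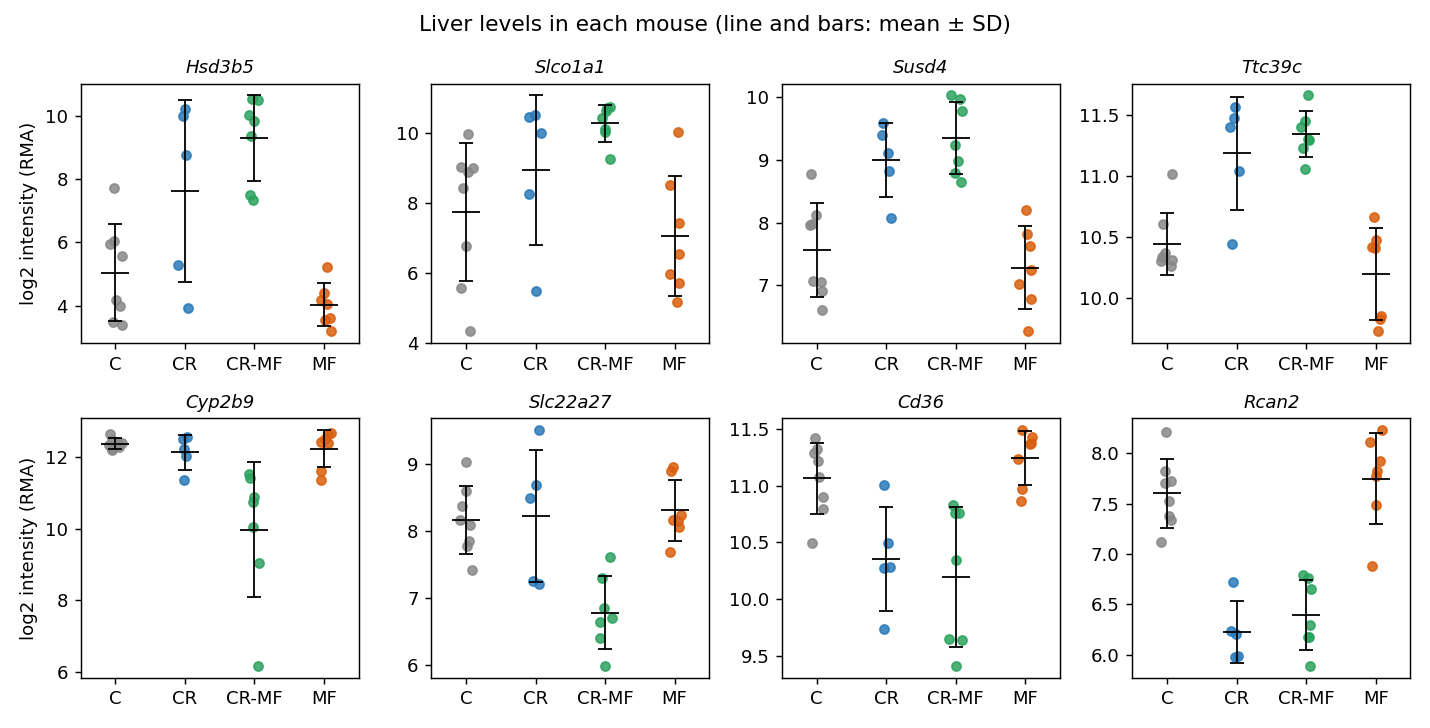
Log2 intensity (RMA) of 8 genes in each mouse of the C, CR, CR-MF and MF groups, with the mean and SD as lines. The 7 CR-MF mice lie above every MF mouse for Hsd3b5, Susd4 and Ttc39c and below every MF mouse for Slc22a27, Cd36 and Rcan2.

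The major urinary proteins, male-biased pheromone carriers made by hepatocytes, were partly in the same direction. Of 18 listed, 5 were measured by a cluster of their own and all 5 differences were positive (median 0.43), with 2 called higher, against 0.55% of all genes. Mup21 ran from 7.55 to 8.27 in CR-MF (median 7.77) and from 6.13 to 7.20 in MF (median 6.55), which did not overlap. Its difference was 1.26 (standard error 0.24, adjusted p = 0.0075). Mup5 was called at 0.43, adjusted p = 0.0402, while Mup3 (0.28, adjusted p = 0.104) was not. Many genes of this family are near-identical copies, and the probes of a member may bind transcripts of others.

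Some genes that female livers express more strongly fell in CR-MF. Of 29 listed, 23 were tested, 7 were called lower and none higher, against 0.893% of all genes, with 22 of 23 differences negative and a median of -0.90. The mean level of the list ran from -1.02 to -0.30 in CR-MF and from -0.24 to 0.95 in MF. Leaving out each mouse in turn gave between 3 and 9 called members, and plate G150 alone gave 3. Cyp2b9, a female-biased P450, ran from 6.17 to 11.52 in CR-MF (median 10.74) and from 11.36 to 12.66 in MF (median 12.42). The groups overlapped slightly, and the CR-MF mouse BC4_5 was far the lowest. The difference was -2.26 (standard error 0.51, adjusted p = 0.0207), but the call ended with the CR-MF and MF arrays fitted alone (adjusted p = 0.141), with the animal number as a replicate block (0.0518) and without the CR-MF mouse BC4_1 (0.0525).

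Slc22a27, an organic anion transporter, ran from 5.98 to 7.62 in CR-MF (median 6.71) and from 7.69 to 8.96 in MF (median 8.17), and the groups did not overlap. Its difference was -1.53 (standard error 0.31, adjusted p = 0.0113). The steroid hydroxylase gene Cyp17a1 ran from 10.04 to 11.46 in CR-MF (median 10.96), and the MF mice had a median of 12.14 and a highest value of 12.72. The groups again did not overlap. It differed by -1.42 (standard error 0.29, adjusted p = 0.0113). Fmo2, a flavin monooxygenase whose promoter is shown above, ran from 7.77 to 8.62 in CR-MF (median 8.03) and from 8.83 to 10.18 in MF (median 9.29). The groups were apart, and the difference was -1.26 (standard error 0.27, adjusted p = 0.0168). The other called members were Cyp2a22 (-1.92, adjusted p = 0.0402), Cyp3a44 (-0.83, adjusted p = 0.0402) and Rtn4 (-0.44, adjusted p = 0.0457), which are P450 enzymes and a reticulon. The call of Cyp2a22 ended under 15 of 29 alternatives, that of Cyp3a44 under 13 and that of Rtn4 under 16. The list also held Cyp2b13, whose difference of -3.30, adjusted p = 0.0679 was wide but not called.

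The levels in the other groups were read on the same genes. The mean level of the male-biased list ran from -0.90 to 0.81 in CR. Its median was 0.28 in CR, 0.81 in CR-MF, -0.21 in C and -0.44 in MF. For the female-biased list the median was 0.10 in CR, -0.78 in CR-MF, 0.32 in C and 0.42 in MF. On that list CR thus lay nearer to C and MF than to CR-MF. Hsd3b5 ran from 3.92 to 10.22 in CR (median 8.75), with 3 of 5 mice in the CR-MF range and the others at 5.28 and 3.92, at or near the MF range, and its median in C was 4.88. Susd4 had medians of 9.11 in CR and 7.51 in C, and Ttc39c 11.40 and 10.34. For Susd4 and Ttc39c the CR median lay near that of CR-MF and the C median near that of MF. The female-biased genes were not alike. Cyp2b9 had medians of 12.22 in CR and 12.36 in C, and Fmo2 8.99 and 9.33, all near MF. Slc22a27 had medians of 8.49 and 8.13, but the CR mice B4_13 and B4_3, at 7.25 and 7.20, lay within the CR-MF range. Cyp17a1 had a mean of 10.84 in CR, 10.90 in CR-MF and 12.33 in MF, and Rtn4 7.50, 7.58 and 8.02. For the latter genes CR was close to CR-MF. Over the 77 higher genes the CR mean was nearer CR-MF for 60 and the C mean nearer MF for 68. Over the 125 lower genes these numbers were 98 and 92. The genes were called on the CR-MF and MF arrays, and the levels of C and CR on them are a description with no test.

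The growth hormone axis itself gave a single call among 18 genes tested. Igfbp2, a binding protein of insulin-like growth factors, ran from 9.69 to 11.11 in CR-MF (median 10.41) and from 8.35 to 10.10 in MF (median 9.55). The groups overlapped, and the difference was 1.08 (standard error 0.25, adjusted p = 0.024). That call ended under 8 of 29 alternatives. The growth hormone receptor Ghr (0.20, adjusted p = 0.08) and the receptor Igf1r (-0.44, adjusted p = 0.0667) were not called. The median of the list was -0.06 and its sign turned with median centring.

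**Figure D3:**
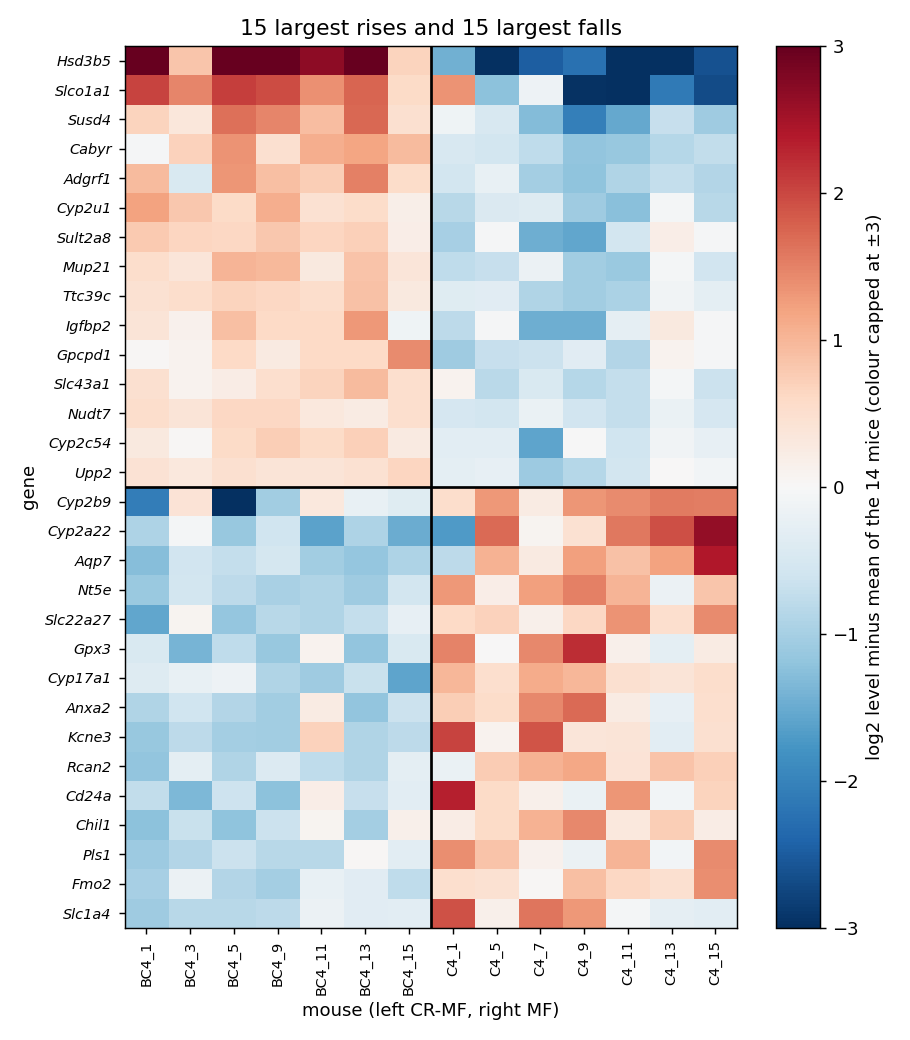
Log2 level minus the mean of the 14 mice for the 15 genes with the largest rise (top) and the 15 with the largest fall (bottom), with colour capped at 3 either way. The left 7 columns are CR-MF mice and the right 7 are MF mice, and BC4_11 is the highest CR-MF mouse for Kcne3 at 6.65.

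Further genes of the largest rises lay outside these lists. Cabyr, a calcium-binding protein, rose by 1.63 (standard error 0.38, adjusted p = 0.0244) and the groups did not overlap. Adgrf1, an adhesion receptor, rose by 1.57 (standard error 0.29, adjusted p = 0.00687). Sult2a8, a liver sulfotransferase, rose by 1.26 (standard error 0.30, adjusted p = 0.0317), and leaving out any of 7 mice ended that call. Gpcpd1 (1.02, adjusted p = 0.0113) is a glycerophosphocholine phosphodiesterase, Slc43a1 (0.97, adjusted p = 0.00774) an amino acid transporter, Cyp2c54 (0.91, adjusted p = 0.0276) a P450 and Upp2 (0.88, adjusted p = 0.0195) a uridine phosphorylase. Called genes chosen after their values were seen were Osgin1 (0.82, adjusted p = 0.00162), Aox3 (0.75, adjusted p = 0.0113), the cytokine receptor Lifr (0.58, adjusted p = 0.0136) and the sterol transporter subunit Abcg8 (0.74, adjusted p = 0.0402).

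Genes of fat uptake and storage were lower in part. Of 20 tested lipid droplet and PPARgamma steatosis genes, 2 were called lower and none higher, against 0.893% of all genes called lower (median -0.40). Cd36, the fatty acid translocase, ran from 9.41 to 10.83 in CR-MF (median 10.34) and from 10.87 to 11.49 in MF (median 11.37), and the groups did not overlap. Its difference was -1.05 (standard error 0.21, adjusted p = 0.012), and the call held under all 29 alternatives. Vldlr, the receptor of very-low-density lipoprotein, ran from 4.83 to 5.91 in CR-MF (median 5.31) and from 5.46 to 6.70 in MF (median 6.60), with overlap, and differed by -1.02 (standard error 0.17, adjusted p = 0.0032). The droplet protein Cidea (-2.31, adjusted p = 0.101) and the fatty acid binding protein Fabp4 (-1.25, adjusted p = 0.123) were not called. Aqp7, a glycerol channel, was called at -1.78, adjusted p = 0.0182, with 3 of the CR-MF arrays above background.

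Fat synthesis and burning gave few calls. None of 23 lipogenesis genes was called (median 0.03), with Scd2 at -0.52, adjusted p = 0.16. Of 25 PPARalpha targets and oxidation genes, Fgf21, a fasting hormone, was called lower (-0.73, adjusted p = 0.0197). Of 14 genes of fatty acid transport and activation, Acsm1, an acyl-CoA synthetase, was called higher (0.44, adjusted p = 0.0216). None of 20 cholesterol synthesis genes was called, while 19 had a positive difference with a median of 0.44, among them Insig1 (0.75, adjusted p = 0.14), Msmo1 (0.97, adjusted p = 0.236) and Cyp51 (0.99, adjusted p = 0.239). None of 22 bile acid genes was called, with Cyp8b1, a sterol hydroxylase, at 0.86, adjusted p = 0.081. Called genes of lipid export, chosen after their values were seen, were Tm6sf2 (-0.56, adjusted p = 0.00581) and Apoa4 (-0.62, adjusted p = 0.0174).

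Intermediary and detoxifying metabolism was also mostly below the threshold. All 18 tested urea cycle and amino acid genes had a positive difference (median 0.14), and none was called, Agxt (0.34, adjusted p = 0.115) and Otc (0.25, adjusted p = 0.119) included. Of 17 glycogen and gluconeogenesis genes, Gyg, glycogenin, was called lower (-0.39, adjusted p = 0.032). Of 20 xenobiotic P450 enzymes, Cyp2c54 and Cyp2d10 (0.46, adjusted p = 0.0472) were called higher and Cyp2c39 (-1.15, adjusted p = 0.0142) lower. Over all genes, 0.55% were called higher and 0.893% lower. None of these enzymes was called in plate G150 alone, and the call of Cyp2c54 ended under 6 of 29 alternatives. Of 20 phase II genes, Gstm2 was called lower (-0.57, adjusted p = 0.0363), against 0.893% of all genes. The conjugating enzymes Gstp1, Ugt2b1 and Sult2a8, given above and not on this list, were called higher. Of 17 antioxidant genes, Gpx3, a secreted glutathione peroxidase, was called lower at -1.51 (standard error 0.31, adjusted p = 0.0126). No gene was called among 34 complex I subunits, 21 chaperones of the endoplasmic reticulum, 23 insulin, leptin and AMPK genes or 16 clock genes. Of 22 N-glycan genes, the fucosyltransferase Fut8 was called lower (-0.55, adjusted p = 0.0174). Of the 14 measured genes that the study names, Cd36 and Fut8 were called, and the other 12 had adjusted p values from 0.123 (Fabp4) to 0.988 (Hif1a). The study counted Cd36 and Fut8 as different between CR-MF and MF, at an unadjusted p under 0.01. It named others for other reasons: Rpn2 and Uggt1 as similar in these groups, and Hif1a among predicted upstream regulators.

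Annexins and a few surface proteins were among the genes that fell. Of 19 annexins and calcium-binding membrane proteins, 3 were called lower and none higher, against 0.893% of all genes called lower (median -0.39). Rcan2, a calcineurin regulator and not an annexin, ran from 5.89 to 6.79 in CR-MF (median 6.30). In MF it ran from 6.88 to 8.23 (median 7.82), with the lowest MF mouse above every CR-MF mouse. Its difference was -1.36 (standard error 0.19, adjusted p = 0.000676). Anxa2 ran from 6.84 to 8.26 in CR-MF (median 7.14) and from 7.78 to 9.72 in MF (median 8.57), with overlap through the CR-MF mouse BC4_11, and differed by -1.42 (standard error 0.24, adjusted p = 0.0032). Anxa5 was called at -0.66, adjusted p = 0.00874. Of 16 fetal and tumour-associated genes, the surface protein Cd24a (-1.35, adjusted p = 0.0197) and Tspan8 (-0.56, adjusted p = 0.0393) were called lower, against 0.893% of all genes. No member was called in plate G150 alone or with the CR-MF and MF arrays fitted alone. Tspan8 lay near background, with 2 of the CR-MF arrays above it. Its fold of 1.48 became 1.34 with lower values raised to background. Nt5e, the ectonucleotidase that makes adenosine, ran from 6.93 to 7.50 in CR-MF (median 7.14) and from 7.85 to 9.55 in MF (median 9.06). The groups did not overlap, and it differed by -1.69 (standard error 0.26, adjusted p = 0.00123). All 29 alternatives kept this call.

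Other large falls were Kcne3 (-1.42, adjusted p = 0.0183), a potassium channel subunit, Chil1 (-1.31, adjusted p = 0.0258), a chitinase-like protein, Pls1 (-1.31, adjusted p = 0.0344), an actin bundler, and Slc1a4 (-1.24, adjusted p = 0.0472), an amino acid transporter. Egln3 (-1.14, adjusted p = 0.0338), a prolyl hydroxylase, and Robo1 (-1.02, adjusted p = 0.00911), a guidance receptor, were chosen after their values were seen. The calls of Pls1 and Slc1a4 ended under 10 and 15 of the alternatives.

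Matrix genes had small, mostly negative differences. Of 28 collagens and fibrosis genes tested, none was called, 27 differences were negative and the median was -0.26, with Timp2 at -0.64, adjusted p = 0.056 and Col6a2 at -0.38, adjusted p = 0.106. The signs depended on the scaling: 23 were negative after quantile normalization (median -0.21) and 22 after median centring (median -0.18). The CR-MF mouse BC4_11 had the highest mean level of this list among the 14 mice, 0.65, where the MF mice ran from -0.10 to 0.34. Without BC4_11, 5 members were called lower, in a setting that called 285 genes (2.04%) lower in all. Matrix genes outside the list that were called lower, chosen after their values were seen, included Dpt (-1.19, adjusted p = 0.00675), Gas6 (-0.95, adjusted p = 0.0216), Svep1 (-0.56, adjusted p = 0.0113), Lama2 (-0.51, adjusted p = 0.024), Smoc2 (-0.37, adjusted p = 0.0442), Prelp (-0.34, adjusted p = 0.0252) and Bgn (-0.31, adjusted p = 0.046). Not all called matrix genes fell. The laminin gene Lama3 was called higher, with differences of 0.83, 0.65 and 0.77 within plates G150, G151 and G152. Of 21 cell cycle genes none was called (median -0.35), with the proliferation marker Mki67 at -0.90, adjusted p = 0.284.

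**Figure D4:**
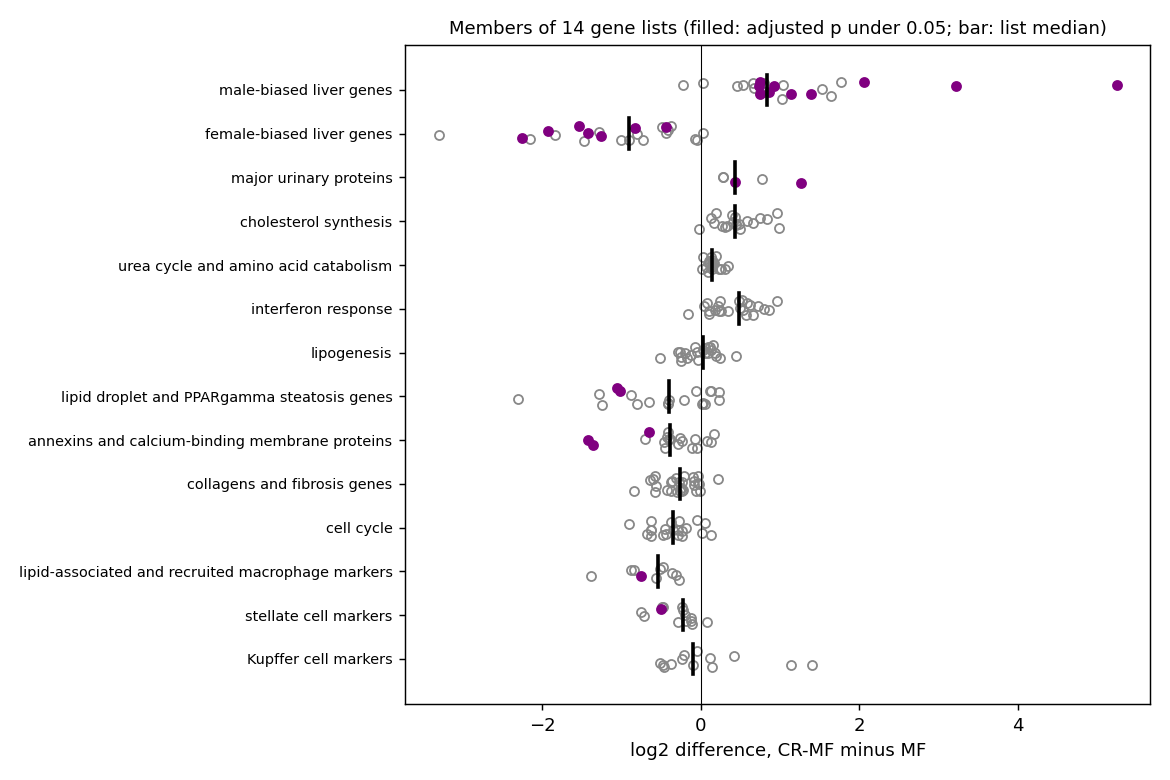
Log2 difference, CR-MF minus MF, of each tested member of 14 gene lists, with filled points for an adjusted p under 0.05 and a bar at the list median. The medians of male-biased and female-biased liver genes lie at 0.84 and -0.90, and no filled point lies among collagens, cholesterol synthesis or interferon genes.

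Immune programmes gave few calls. None of 23 interferon response genes was called, while 22 were positive (median 0.49), among them Ifih1 (0.49, adjusted p = 0.057), Herc6 (0.59, adjusted p = 0.0957) and Ifit1 (0.96, adjusted p = 0.114). With median centring 2 of them were called higher, in a setting that called 179 genes higher in all. Outside the list, the interferon-induced gene Ifi27 was called higher, with differences of 1.0, 0.44 and 0.4 within plates G150, G151 and G152. None of 19 acute-phase genes (median -0.12), 21 cytokines and chemokines, 10 MHC class II genes, 20 p53 targets or 24 sphingosine and ceramide genes was called. Lcn2, lipocalin, had -0.97, adjusted p = 0.335, and Orm3, an orosomucoid, -1.35, adjusted p = 0.207. Each had a wide spread within the groups.

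Markers of other liver cells moved in part with the falling genes. In whole tissue, fewer cells of a type and less RNA per cell cannot be told apart. Of 10 tested markers of lipid-associated and recruited macrophages, Cd9 was called lower (-0.76, adjusted p = 0.0327), and all 10 differences were negative (median -0.54), Gpnmb included (-1.39, adjusted p = 0.077). The mean level of that list ran from -0.85 to 0.98 in CR-MF and from -0.23 to 0.59 in MF. The highest value was that of BC4_11, and the other CR-MF mice reached -0.06. Of 14 stellate cell markers, Colec11 was called lower (-0.51, adjusted p = 0.0338) and 13 were negative (median -0.23), with Lum at -0.76, adjusted p = 0.0526. Without BC4_11, 4 stellate markers were called lower, in a setting that called 285 genes (2.04%) lower in all. With median centring, in plate G150 alone or with the CR-MF and MF arrays fitted alone, no stellate marker was called. The stellate list ran from -0.38 to 0.25 in CR-MF and from -0.01 to 0.44 in MF. Of 8 cholangiocyte markers, Epcam was called lower (-0.78, adjusted p = 0.0216) and Krt7 was at -0.38, adjusted p = 0.109. The 8 split into 4 positive and 4 negative differences, with a median of -0.05. Of 14 T and NK cell markers, Themis was called lower (-1.04, adjusted p = 0.0344), while 6 differences were positive and 8 negative (median -0.09). None of 13 Kupffer cell, 11 B and plasma cell, 9 neutrophil, 13 endothelial, 6 adipocyte or 2 red cell markers was called. Among Kupffer cell genes, Cd163 (1.41, adjusted p = 0.165) and Marco (1.14, adjusted p = 0.217) had the largest positive differences. Most of that list went the other way, with 8 of 13 differences negative and a median of -0.09. The part of these cells in the falling genes was not tested.

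The mice of a group were not alike on the genes that separate the groups. Each mouse was placed on the genes called without it, where 0 is the mean of the other CR-MF mice and 1 that of the other MF mice. The genes thus differ between mice, from 91 for BC4_9 to 423 for BC4_11, with 395 for C4_13. The CR-MF mice lay between -0.08 and 0.68 (median 0.02) and the MF mice between 0.33 and 0.92 (median 0.81). The CR-MF mouse BC4_11 at 0.68 lay nearer to MF, and the MF mouse C4_13 at 0.33 nearer to CR-MF. BC4_15 at 0.38 and BC4_3 at 0.36 were next among CR-MF mice. Of the 202 called genes, 202 had the same direction within plate G150, 197 within G151 and 178 within G152, the plate of BC4_11, but these mice also chose the genes. The number of calls leaned on single mice: without BC4_9 there were 35 higher and 56 lower genes, without BC4_13 35 and 57, without BC4_11 138 and 285, and without C4_13 162 and 233.

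**Figure D5:**
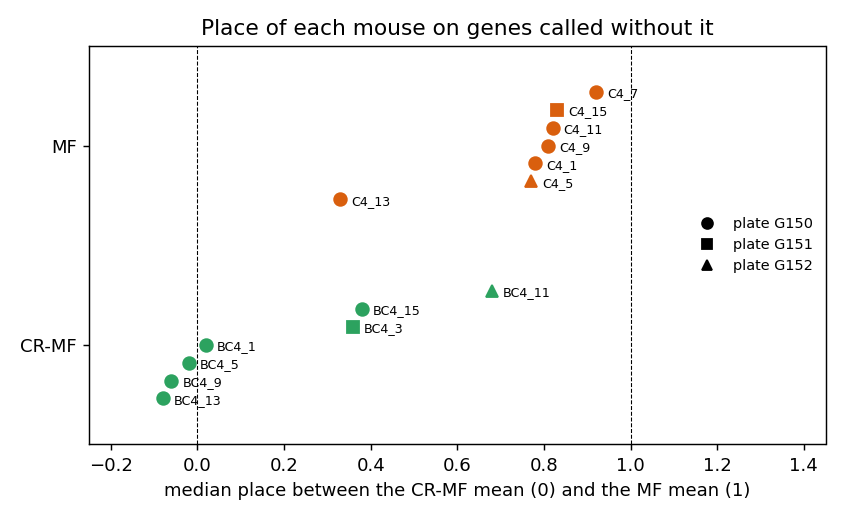
Median place of each of the 14 mice between the CR-MF mean (0) and the MF mean (1) of the other mice, on genes called without the mouse, with the symbol giving the plate. The CR-MF mouse BC4_11 lies at 0.68 and the MF mouse C4_13 at 0.33, while the other MF mice lie between 0.77 and 0.92.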

How the data were processed

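The platform was the Affymetrix Mouse Gene 1.1 ST array, hybridised once per mouse with liver RNA (27 mice). The authors deposited log2 intensities from RMA, per the submitters' processing notes. Versions are not given in the sources used here. Array number and signal over background limit the precision. Of the transcript clusters, 21218 had 1 gene symbol, 1881 several and 12457 none listed, and only the first were named. The brightest cluster stood for a gene. A gene was tested if its intensity exceeded 20 in 5 or more arrays and its interquartile range exceeded 0.1 (13993 of 18820). All 27 arrays entered 1 linear model in limma 3.58.1 under R 4.3.3, moderated with an intensity trend, with the contrast CR-MF minus MF and Benjamini-Hochberg adjustment, and was tested on simulated data. Plates and well rows were read from the array names.

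The comparison and the gene lists were chosen with earlier results of these data known. Named genes are those the study names, the 15 largest rises and 15 largest falls among called genes without predicted models, and in each list up to 4 members with the smallest p; others are said to be chosen after their values were seen or are further list members. Alternatives changed the scaling, the filter, the cluster, the statistic, the weights, the arrays fitted, the plate and the replicate block, and left out each mouse. Further settings, each leaving out a pair of mice, were chosen after seeing the data.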

Additional observations from a re-analysis of the deposited data

Results flagged for a closer look

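Among 62 groups of 7 mice checked (the 30 genes of largest change and the held-out places, in CR-MF and in MF), 6 had a mouse whose gap to its nearest neighbour was over 0.568 of the range. Chance gives about 1 in 20 such groups. The MF mouse C4_13 had a held-out place of 0.33, where the next MF mouse had 0.77. The CR-MF mouse BC4_11 had 6.65 for Kcne3, against 5.17 for the next highest, and 8.26 for Anxa2, against 7.43. The CR-MF mouse BC4_15 had 12.22 for Gpcpd1, the highest, and 10.72 for Sult2a8, the lowest. The MF mouse C4_7 had 8.99 for Cyp2c54, against 9.98 for the next lowest.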

How the results depend on the processing

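None of the 202 called genes changed direction under any alternative, and of the 30 genes with the largest change 12 stayed called under all that tested them. Several smaller calls ended often among 28 or 29 alternatives: Bgn under 18, Smoc2 under 16, Cyp2d10, Gstm2, Tspan8 and Colec11 under 13, Abcg8 under 12, Gyg and Themis under 11, Mup5, Prelp and Egln3 under 10 and Cd9 under 9. Except where said, the counts moved by over 1.5 times under these settings, and the cause was not tested. Median centring gave 179 higher and 80 lower genes (779 and 224 at p under 0.01). Array weights gave 168 and 347 (735 lower at p under 0.01). Fitting the CR-MF and MF arrays alone gave 57 lower genes, and 94 of the 202 remained called. Plate G150 alone, with fewer arrays, gave 38 and 76. An intensity above 100 gave 285 lower genes at p under 0.01, with fewer genes tested. Leaving out each mouse in turn gave 35 to 162 higher and 56 to 285 lower genes. At p under 0.01 it gave 368 to 718 lower genes. The higher genes at that threshold, 258 to 452, stayed within 1.5 times of the 340. With the animal number as a replicate block the counts were 48 and 82. The 6 shared numbers did not pair the mice, with correlations of deviations from -0.255 to 0.335 and 1 mouse matching best with its own number, so the block is only a hint from the data.

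After the data were seen, 2 settings were added. Without BC4_11 and BC4_15, the CR-MF mice with the lowest scores on the first principal component, there were 177 higher and 410 lower genes (831 lower at p under 0.01). Without BC4_11 and C4_13, the mice farthest from their own group in the held-out placement, there were 239 and 512 (904 lower). The second pair was picked from the outcome itself, which raises the count by construction, and no statement rests on it. Genes with differences near 0 changed sign: Rpn2 to -0.01 with quantile normalization, -0.02 within plate G150 and -0.01 without BC4_11 and BC4_15; Mogs to -0.01 with the replicate block and between -0.03 and -0.01 without single mice; Uggt1 to -0.07 within plate G150; Ahr to -0.06 with array weights, -0.07 without the CR-MF mouse BC4_15 (-0.07 to 0.12 without single mice) and -0.12 without BC4_11 and BC4_15; Btnl2 to 0.00 with median centring and without the MF mouse C4_11 (-0.17 to 0.00 without single mice); and Hif1a to 0.08 with median centring and between 0.00 and 0.04 without single mice.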
